A study of Mus musculus with 12 samples.

Results

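Of the 23235 gene entries measured in the nuclei and cytoplasms of growing mouse oocytes, 8 that code for proteins of small RNA pathways are described here. They are Dicer1, Dgcr8, Piwil2, Mael, Ddx4, Tdrkh, Mov10l1 and Pld6, chosen by symbol for their known roles, and all 8 were in the table and passed the filter on low values (at least 1 FPKM in at least 3 libraries). Oocytes of day-14 mice, Mtr4-null or wild type (WT), were taken apart by micromanipulation, and total RNA without ribosomal RNA was sequenced from 10 nuclei or 10 cytoplasms per sample. The 12 libraries form 4 groups of 3: Mtr4-null nucleus, WT nucleus, Mtr4-null cytoplasm and WT cytoplasm. MTR4 is the RNA helicase that hands nuclear RNA to the exosome for trimming and decay. The sources used here do not give the allele, the driver of any deletion or the strain. Whether a group's 3 libraries stem from separate animals is not stated either, so p-values measure a spread between libraries that may be technical. In these pools of 10, fewer transcripts in every cell and fewer cells that hold the transcript cannot be told apart.

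Small RNAs guide Argonaute proteins to matching transcripts. The microprocessor, made of DROSHA and DGCR8, cuts primary microRNA transcripts in the nucleus, and DICER1 cuts the exported hairpins and long double-stranded RNA in the cytoplasm; mouse oocytes are known for abundant endogenous siRNAs made by DICER1. PIWI proteins carry another class, the piRNAs, which silence transposons in germ cells. In mice, loss of many piRNA pathway genes blocks sperm formation while females stay fertile.

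The label check used Skiv2l2 (Mtr4): Mtr4-null cytoplasms held 1.04, 0.315 and 0.700 FPKM of it and WT cytoplasms 21.1, 19.4 and 20.2 FPKM. It was at 7.98, 0.182 and 1.12 FPKM in the nuclei labelled Mtr4-null. The WT nuclei held 6.06, 2.45 and 5.37 FPKM, so the library labelled Mtr4-null nucleus replicate 1 goes against its label. Across genes, Spearman's rho of that library was 0.858 to 0.862 with the WT nuclei. With the other 2 nuclei of its group it was 0.763 and 0.837. With the cytoplasms it was 0.825 to 0.828 for WT and 0.790 to 0.802 for Mtr4-null. Whether the label is right was not tested. All nuclear genotype values and all Mtr4-null values of nucleus over cytoplasm rest on this library. Replicate 3 of the same group stood apart in another way: all 8 members were highest there among the 3 nuclei of the group, and 7 of 8 were lowest in replicate 2. This order was not particular to the members. The median-of-ratios factor, a scale over genes above 0 in every library, was 0.705, 0.487 and 1.28 in replicates 1, 2 and 3. Across genes, Spearman's rho of that replicate 3 was 0.916 to 0.931 with the 3 Mtr4-null cytoplasms and 0.831 to 0.837 with the other 2 nuclei of its group, and every Mtr4-null value of nucleus over cytoplasm includes it. The depth of the nuclear libraries, estimated against WT cytoplasm replicate 1, was 0.147, 0.129 and 0.398 in those labelled Mtr4-null and 0.174, 0.143 and 0.166 in WT, so nuclear values are less precise than cytoplasmic ones. The cytoplasms were not matched in depth either. On the same scale the Mtr4-null cytoplasms were at 1.12, 0.520 and 0.669, and WT cytoplasm replicates 2 and 3 at 1.56 and 1.41. All 12 oocyte markers were above 1 FPKM in at least 1 library of every group. Of the 14 granulosa cell markers, Amh, Foxl2 and Fshr stayed at or below 1.70 FPKM in every library, while Nr5a2 reached 30.6 FPKM and Cyp19a1 5.51 FPKM.

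Of the 8 members, Mael differed most between genotypes in the cytoplasm, with 0.339 of the WT level in Mtr4-null oocytes, and Piwil2 was 1.70 times its WT level. The other 6 members differed less and passed in neither of the fits below. Mael encodes Maelstrom, a germ cell protein needed for transposon silencing by piRNAs. It was at 15.7, 12.7 and 15.5 FPKM in Mtr4-null cytoplasms and at 39.8, 44.0 and 45.7 FPKM in the WT cytoplasms. All Mtr4-null libraries lay below all WT libraries. The log2 fold change was -1.50 on the log2(FPKM + 1) scale. In the fit of the 6 cytoplasms alone its standard error was 0.11 and its limma adjusted p 0.0014. In the fit of all 12 libraries, which borrows the wider spread of the nuclei, the standard error was 0.39 and the limma adjusted p 0.068. Leaving out any 1 of the 6 cytoplasms kept the call in the fit of the 6 (limma adjusted p between 0.0028 and 0.015).

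The promoter of Mael, the member that differed most, is shown with a window of Pld6, which did not pass. Of the 8 members 7 had a window, Piwil2 none. The 2 shown are the windows of members that overlap no annotated gene, 250 bases before the start, from RefSeq GRCm38.p6. Both hold CACGTG, in capitals, an E-box core that reads the same on both strands and was chosen after these windows were read. Pld6 has another window, which overlaps the annotated Pld6 gene itself and holds no CACGTG. The other windows not shown also overlap only the annotated gene of their own member. Mael: minus strand of chr1:166238745-166238994. Pld6: minus strand of chr11:59787658-59787907.
Mael: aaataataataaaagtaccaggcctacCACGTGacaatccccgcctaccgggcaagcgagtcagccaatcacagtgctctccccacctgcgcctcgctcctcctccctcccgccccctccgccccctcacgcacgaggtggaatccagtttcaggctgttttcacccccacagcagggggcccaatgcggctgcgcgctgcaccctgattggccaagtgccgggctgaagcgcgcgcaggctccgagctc
Pld6: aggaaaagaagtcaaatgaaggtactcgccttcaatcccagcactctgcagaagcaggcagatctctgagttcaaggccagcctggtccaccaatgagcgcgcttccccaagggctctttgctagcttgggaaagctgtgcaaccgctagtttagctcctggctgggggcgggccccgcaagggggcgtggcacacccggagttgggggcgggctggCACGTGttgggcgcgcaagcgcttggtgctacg
It is in 4 of the 8 windows of members and in 6.02% of all 32851 windows, which is no comparison, since the motif was picked from the members' windows. A match is a description of the letters.

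Piwil2 encodes MILI, a PIWI protein that binds piRNAs. It was at 19.8, 18.3 and 21.0 FPKM in Mtr4-null cytoplasms and at 13.5, 10.1 and 11.3 FPKM in the WT cytoplasms. The groups did not overlap. The log2 fold change of 0.72 had a standard error of 0.13 and a limma adjusted p of 0.015 in the fit of the 6 cytoplasms, and 0.47 and 0.63 in the fit of all 12 libraries. The call was lost, in the fit of the 6, without WT cytoplasm replicate 2 (limma adjusted p = 0.063), WT cytoplasm replicate 3 (limma adjusted p = 0.067) or Mtr4-null cytoplasm replicate 3 (limma adjusted p = 0.054).

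As another description of the same values, Mael took 6.07%, 5.49% and 6.01% of the summed FPKM of the 8 members in the Mtr4-null cytoplasms and 14.4%, 16.1% and 16.9% in the WT cytoplasms. The sums themselves were 259, 232 and 257 FPKM in Mtr4-null and 277, 273 and 270 FPKM in WT. In the nuclei the share of Mael was 11.2%, 10.6% and 6.82% in those labelled Mtr4-null and 11.6%, 4.57% and 5.41% in WT, which overlapped.

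Of the 8 members, none passed the test at an adjusted p below 0.05 in the fit of 12 libraries, where 1.88% of the 13157 tested genes did. In the fit of the 6 cytoplasms 23.2% of all tested genes passed (13.3% higher, 9.85% lower), and 2 of 8 members did: Piwil2 rose and Mael fell. The groups did not overlap for 4 of 8 members, against 43.9% of all tested genes (23% higher, 20.9% lower). Both member counts are near these shares. Mael stood at percentile 1.45 of the log2 fold changes of all tested genes and Piwil2 at percentile 88.8.

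Dgcr8, the RNA-binding partner of DROSHA, was at 20.6, 17.64 and 23.6 FPKM in Mtr4-null cytoplasms and at 17.55, 15.8 and 17.2 FPKM in the WT cytoplasms, which did not overlap by a narrow margin (log2 fold change 0.27, limma adjusted p = 0.18 in the fit of the 6). Tdrkh, a Tudor protein at mitochondria that helps to trim piRNAs, was at 15.1, 14.6 and 14.3 FPKM in Mtr4-null and at 21.3, 17.7 and 15.8 FPKM in WT (log2 fold change -0.29, limma adjusted p = 0.16). Every Mtr4-null library was below every WT library for Tdrkh. The remaining 4 members overlapped between the genotypes. Mov10l1, the helicase that binds piRNA precursors, was at 4.82, 5.60 and 4.97 FPKM in Mtr4-null and at 9.12, 6.96 and 5.50 FPKM in WT, and averaged 5.13 ± 0.41 FPKM in Mtr4-null and 7.19 ± 1.82 FPKM in WT (SD, n = 3 each). Pld6, the mitochondrial nuclease that makes piRNA ends, was at 23.3, 27.0 and 27.7 FPKM in Mtr4-null and at 24.3, 15.9 and 19.25 FPKM in WT, and averaged 26.0 ± 2.35 FPKM in Mtr4-null and 19.8 ± 4.24 FPKM in WT (SD, n = 3 each). Dicer1 had the highest mean of the members in every group; in the cytoplasm it averaged 98.9 ± 8.08 FPKM in Mtr4-null and 107 ± 9.60 FPKM in WT (SD, n = 3 each), and its log2 fold change of -0.11 had a 95% interval of -0.36 to 0.14 in the fit of the 6. Ddx4, the germ cell helicase also called Vasa, averaged 49.7 ± 4.55 FPKM in Mtr4-null and 49.5 ± 4.84 FPKM in WT (SD, n = 3 each), with a 95% interval of -0.26 to 0.27 for its log2 fold change.

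**Figure D1:**
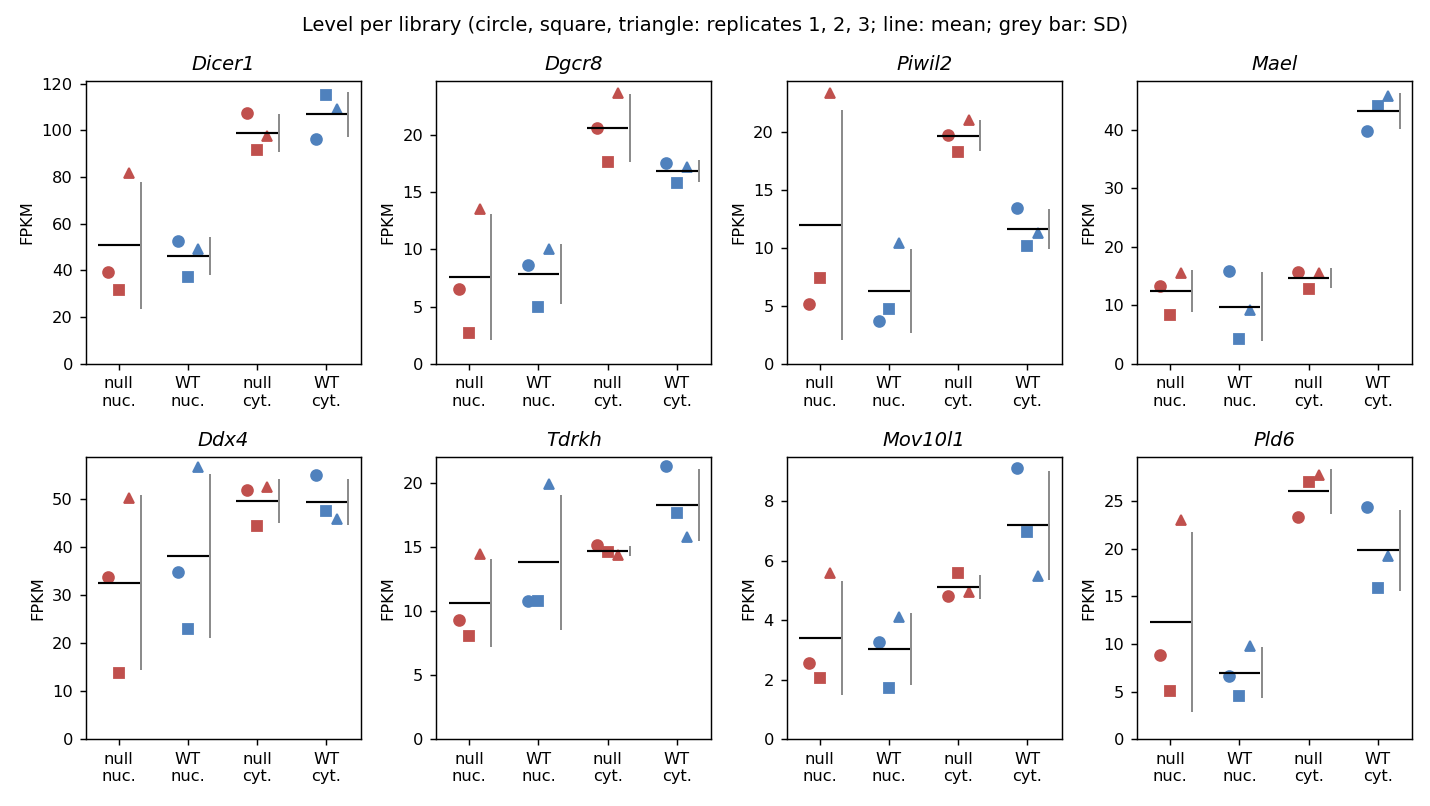
Level of each of the 8 genes in FPKM (vertical axis, from 0) in the 4 groups, nuclei to the left; circles, squares and triangles are replicates 1, 2 and 3, the line is the mean and the grey bar the SD. Mael is at 12.7 to 15.7 FPKM in Mtr4-null cytoplasms, below the WT cytoplasms at 39.8 to 45.7.

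**Figure D2:**
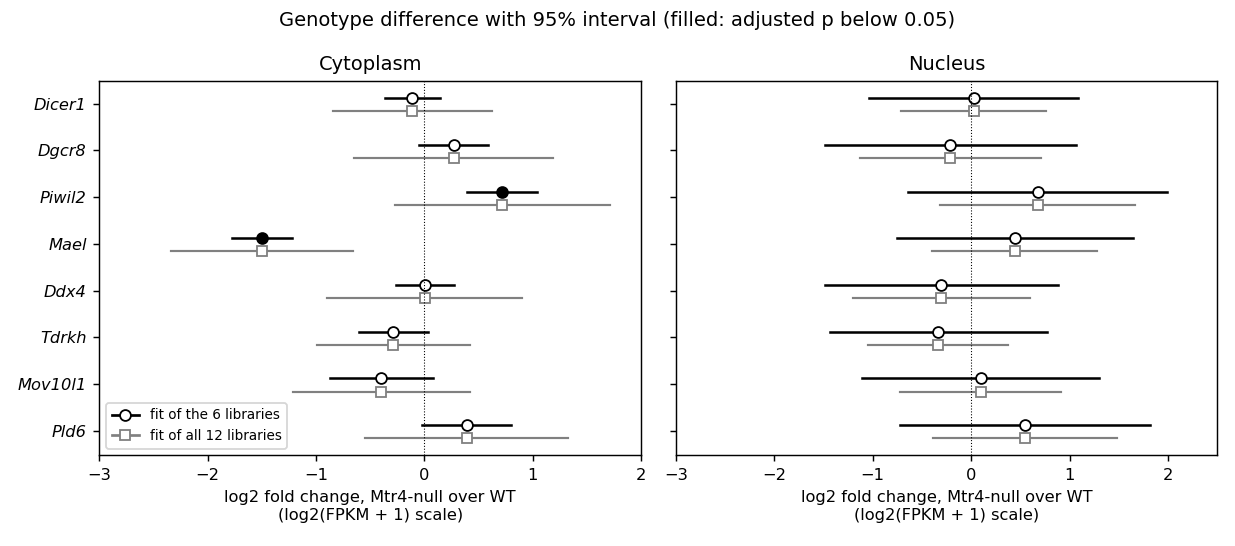
Log2 fold change of Mtr4-null over WT for the 8 genes in the cytoplasm and in the nucleus, with 95% intervals from the fit of the 6 libraries compared (black circles) and of all 12 (grey squares); filled symbols passed the test. Only Mael (-1.50) and Piwil2 (0.72) are filled, in the cytoplasm and in the fit of the 6.

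The order of the mean levels differed between the genotypes. In the Mtr4-null cytoplasms it ran Dicer1, Ddx4, Pld6, Dgcr8, Piwil2, Tdrkh, Mael, Mov10l1, where Pld6 and Dgcr8, Dgcr8 and Piwil2, and Tdrkh and Mael overlapped. In the WT cytoplasms it ran Dicer1, Ddx4, Mael, Pld6, Tdrkh, Dgcr8, Piwil2, Mov10l1, where Pld6 and Tdrkh, and Tdrkh and Dgcr8, overlapped and the other neighbours did not. Mael was thus in place 7 in Mtr4-null and in place 3 in WT.

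The summed level of granulosa cell markers moved with these groups. It was 21.5 to 27.9 FPKM in the Mtr4-null cytoplasms and 34.4 to 41.2 FPKM in the WT cytoplasms, with 9 of 14 and 10 of 14 markers below 1 FPKM in every library. Most of the difference was Nr5a2, which averaged 18.6 FPKM in the Mtr4-null cytoplasms and 28.5 FPKM in the WT cytoplasms; without it the sums overlapped, at 5.93 to 8.11 FPKM in Mtr4-null and 7.82 to 11.9 FPKM in WT. The means of 7 of 14 markers were higher in Mtr4-null, among them Amh (0.326 FPKM in Mtr4-null and 0.0756 FPKM in WT), Foxl2 (0.248 and 0.0791 FPKM) and Kctd14 (0.836 and 0.103 FPKM). Those of the other 7 were lower, among them Nr5a2, Cyp19a1 (2.07 FPKM in Mtr4-null and 3.93 FPKM in WT), Kitl (1.65 and 3.19 FPKM) and Inha (0.442 and 1.56 FPKM). Of the 5 tested markers, 1 rose and 2 fell in the fit of the 6 cytoplasms, where 13.3% and 9.85% of all tested genes did. Theca and stroma markers summed to 0.343 to 1.12 FPKM in the Mtr4-null cytoplasms and 1.29 to 2.30 FPKM in the WT cytoplasms, with all 12 below 1 FPKM in every cytoplasm. In the cytoplasms the exact permutation p was 0.10 for the sum of each of these 2 whole lists, the smallest that 3 against 3 allows. Blood and endothelium markers summed to 13.8 to 21.6 FPKM in the Mtr4-null cytoplasms and 16.7 to 25.2 FPKM in WT (exact permutation p = 0.7). Of these, Pecam1 averaged 14.1 FPKM in Mtr4-null and 12.8 FPKM in WT. For the summed oocyte markers the exact permutation p was 0.4. Theca and stroma markers were higher in the nuclei, at 4.85 to 9.86 FPKM in those labelled Mtr4-null and 5.23 to 39.3 FPKM in WT. Col1a1 reached 18.4 FPKM in a WT nucleus and Insl3 7.36 FPKM in a nucleus labelled Mtr4-null. The part of these markers in the Mael and Piwil2 results was not tested.

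In the nucleus no member passed the test, in the fit of all 12 libraries (2.26% of all tested genes did) or in the fit of the 6 nuclei (0.038%), and all 8 members overlapped between the genotypes. The fit of all 12 also borrows the smaller spread of the cytoplasms, so it can understate the spread of nuclear values. For Dicer1 the nuclear standard error was 0.34 in that fit and 0.50 in the fit of the 6. The 2.26% rests on that narrower spread. Mael was at 13.3, 8.40 and 15.5 FPKM in the nuclei labelled Mtr4-null and at 15.9, 4.16 and 9.15 FPKM in the WT nuclei. Piwil2 was at 5.15, 7.42 and 23.4 FPKM in the nuclei labelled Mtr4-null and at 3.73, 4.74 and 10.4 FPKM in the WT nuclei, with the highest value of each group in replicate 3. Pld6 had 8.86, 5.04 and 23.0 FPKM in the nuclei labelled Mtr4-null and 6.68, 4.54 and 9.81 FPKM in the WT nuclei. The same library was the highest of its group for both genes. Dicer1 had 39.1, 31.4 and 81.7 FPKM in the nuclei labelled Mtr4-null and 52.6, 37.1 and 49.1 FPKM in the WT nuclei. Dgcr8 had 6.53, 2.70 and 13.5 FPKM in the nuclei labelled Mtr4-null and 8.63, 4.92 and 10.0 FPKM in the WT nuclei. For these 2 genes the WT values lay inside the range of the other group. Ddx4 ranged over 13.8 to 50.3 FPKM in the nuclei labelled Mtr4-null and 23.0 to 56.7 FPKM in the WT nuclei, Tdrkh over 8.07 to 14.5 FPKM in the nuclei labelled Mtr4-null and 10.8 to 19.9 FPKM in the WT nuclei, and Mov10l1 over 2.05 to 5.60 FPKM in the nuclei labelled Mtr4-null and 1.71 to 4.11 FPKM in the WT nuclei. Summed FPKM of 8 nuclear RNA markers was 137 to 360 in the nuclei labelled Mtr4-null and 401 to 812 in the WT nuclei (exact permutation p = 0.10, the smallest that 3 against 3 allows), and its part in these values was not tested. Of all tested genes, 12.9% did not overlap between these groups. For Dicer1 the nuclear log2 fold change was 0.02 (95% interval -1.04 to 1.09, fit of the 6). It was -0.53 once both doubted nuclei (labelled Mtr4-null, replicates 1 and 3) were left out. Without those 2 libraries Dgcr8 was at -1.21 and Ddx4 at -1.31, while the median of all tested genes was -0.50. These values rest on 1 Mtr4-null nucleus, replicate 2, which had the lowest estimated depth of the nuclei (0.129). Spearman's rho of that replicate across genes was 0.715 to 0.747 with the WT nuclei and 0.784 to 0.811 with the Mtr4-null cytoplasms.

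Between nucleus and cytoplasm, values are relative to each library's own total, and the median of all tested genes was -0.82 in Mtr4-null and -0.90 in WT on the log2 scale. In the WT oocytes 5 of 8 members were lower in the nucleus (Dicer1, Dgcr8, Mael, Mov10l1 and Pld6), where 45% of all tested genes were called lower; the same number passed in the fit of the 6 WT libraries, where 55% were. In the Mtr4-null oocytes 3 of 8 were lower (Dicer1, Dgcr8 and Pld6), where 28.1% were, but none passed in the fit of the 6 Mtr4-null libraries (0.935% of genes called). Both counts rest on single libraries. In WT it was 2 without WT nucleus replicate 2 or WT cytoplasm replicate 1, and 3 without WT nucleus replicate 1 or WT cytoplasm replicate 2. In Mtr4-null it was 7 without Mtr4-null nucleus replicate 3, and 0 without Mtr4-null nucleus replicate 1 or 2 or any 1 of the 6 cytoplasms. With median-of-ratios scaling, in WT 2 members passed, Mael lower (-1.15) and Ddx4 higher (0.65, limma adjusted p = 0.048), and in Mtr4-null none; Piwil2, Ddx4 and Tdrkh in WT, and Mael, Ddx4, Tdrkh and Mov10l1 in Mtr4-null, changed sign. That scaling moved the median of all tested genes to -0.05 in Mtr4-null and 0.003 in WT.

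Of the called members, Dicer1 had a log2 fold change of nucleus over cytoplasm of -1.07 in Mtr4-null and -1.20 in WT, Dgcr8 of -1.54 in Mtr4-null and -1.06 in WT, and Pld6 of -1.26 in Mtr4-null and -1.41 in WT. For Mov10l1 it was -0.56 in Mtr4-null, which did not pass, and -1.05 in WT, which did. The difference between those 2 values, 0.49 ± 0.54 (standard error), did not pass. Ddx4 (-0.76 in Mtr4-null and -0.45 in WT), Tdrkh (-0.47 in Mtr4-null and -0.42 in WT) and Piwil2 (-0.94 in Mtr4-null and -0.89 in WT) passed in neither genotype.

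Mael differed most between the genotypes in this respect. In the Mtr4-null oocytes its log2 fold change of nucleus over cytoplasm was -0.26 ± 0.39 (standard error, limma adjusted p = 0.59), and in the WT oocytes it was -2.20 ± 0.39 (limma adjusted p = 0.00088), which passed without any 1 of the 12 libraries. As a ratio of mean FPKM, the nucleus held 0.848 of the cytoplasmic level in Mtr4-null and 0.226 in WT. The difference between those log2 fold changes was 1.94 ± 0.56 and did not pass in the fit of all libraries (limma adjusted p = 0.19; 0.122% of genes passed), though it stood at percentile 99.5 of all tested genes. It passed under 1 of 22 alternatives, library weights that stopped before they converged (1.71, limma adjusted p = 0.021); under the other 21 the limma adjusted p was 0.059 to 0.45. That difference was 1.47 once both doubted nuclei were dropped, with 1 Mtr4-null nucleus left, and that of Dgcr8 was then -1.48. In the fit of all libraries the 1.94 is also the log2 fold change of Mtr4-null over WT in the nucleus, 0.44, minus that in the cytoplasm, -1.50.

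**Figure D3:**
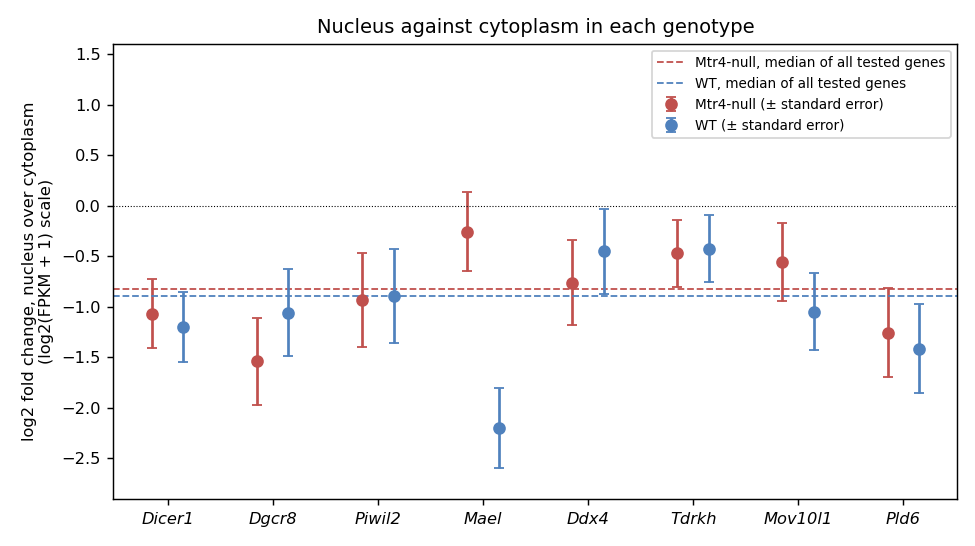
Log2 fold change of nucleus over cytoplasm for each gene in Mtr4-null (red) and WT (blue) oocytes, with standard errors from the fit of all 12 libraries; dashed lines mark the median of all tested genes in each genotype. Mael is at -0.26 in Mtr4-null, above its dashed line, and at -2.20 in WT, 1.30 below its own.

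Among the other genes of the piRNA pathway, 29 of 30 in the table were tested. In the cytoplasm 2 fell in the fit of all 12 libraries, where 1.88% of all tested genes passed in either direction, and none rose. Exd1, a partner of TDRD12 in piRNA production, was at 3.39, 2.81 and 5.36 FPKM in Mtr4-null cytoplasms and at 18.8, 20.4 and 20.5 FPKM in the WT cytoplasms. Its log2 fold change was -2.14 ± 0.45 (limma adjusted p = 0.023). Piwil1, the PIWI protein MIWI, was at 1.75, 0.748 and 0.581 FPKM in Mtr4-null and at 5.64, 14.6 and 8.66 FPKM in WT (-2.35 ± 0.49, limma adjusted p = 0.023). Both calls held without any 1 of the cytoplasms in the fit of the 6. In the fit of all 12, Exd1 lost its call without any 1 of the 6 cytoplasms (limma adjusted p of 0.060 to 0.12), and Piwil1 lost it without any 1 of them but WT cytoplasm replicate 1 (up to 0.15). In the fit of the 6 cytoplasms 6 rose and 5 fell, where 13.3% of all tested genes rose and 9.85% fell. The 2 that rose with the smallest adjusted p were Tex15, needed for transposon silencing (log2 fold change 1.72), and Fkbp6, a co-chaperone of HSP90 (1.04). Fkbp6 lost its call without WT cytoplasm replicate 2 (limma adjusted p = 0.051). The median log2 fold change of the list was -0.04, against 0 for all tested genes. Hsp90aa1, Gtsf1 and Tdrd5 were the most abundant of the list in the cytoplasms, with 697, 175 and 151 FPKM on average over the 6, and none of them passed. In the nucleus none passed in either fit.

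Of the microRNA and siRNA machinery, 20 of 24 genes were tested. In the cytoplasm none passed in the fit of all 12 libraries, and 3 rose in the fit of the 6: Srrt, which links the cap to microRNA processing (0.996), and Tsnax (0.46) and Tsn (0.38), partners in the nuclease that clears the passenger strand of siRNAs. These 3 of 20 are near the 13.3% of all tested genes that rose. Leaving out 1 cytoplasm kept the call of Srrt in 4 of 6 fits, and of Tsnax and Tsn in 1 each. The median log2 fold change was 0.01. Ddx5, Lin28a and Tsnax were the most abundant, with 82.5, 71.6 and 71.2 FPKM on average over the 6 cytoplasms.

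**Figure D4:**
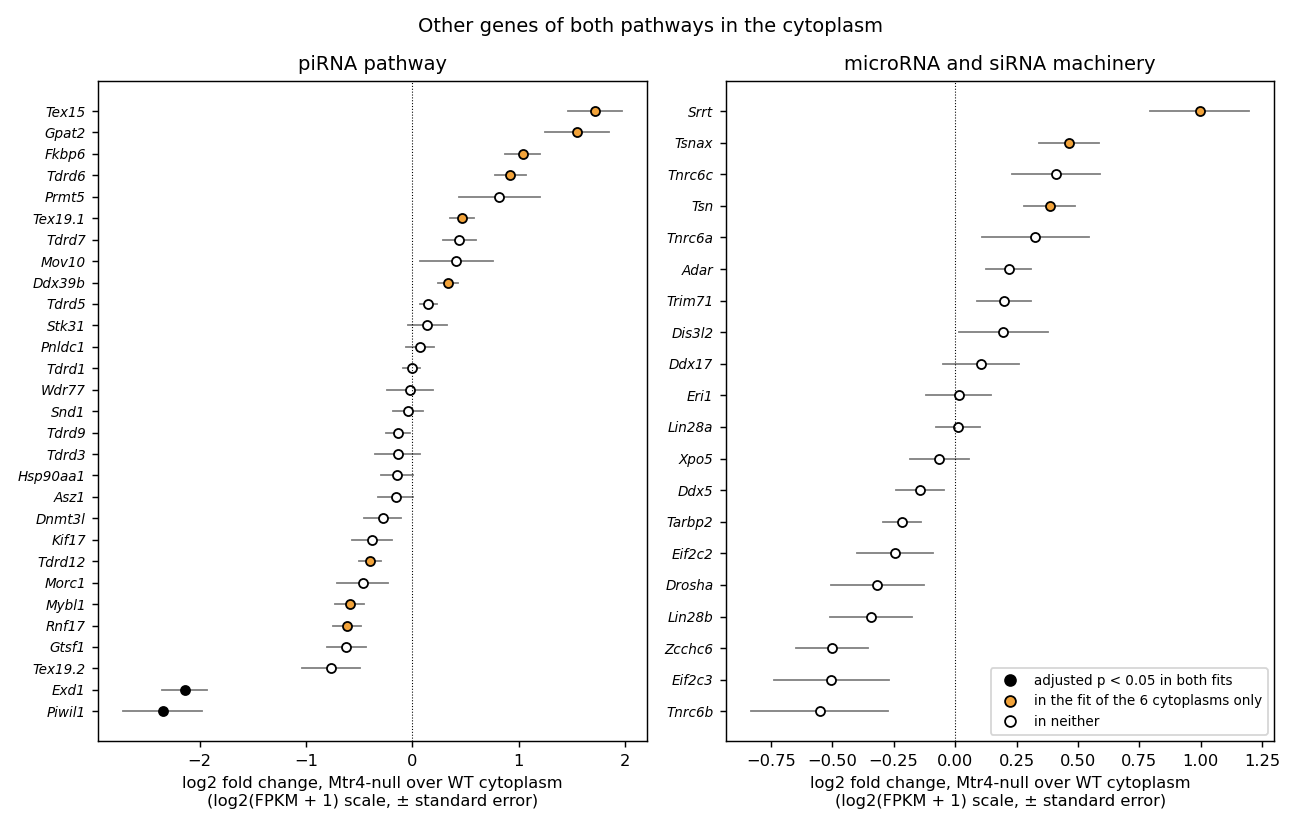
Log2 fold change of Mtr4-null over WT cytoplasm for every tested gene of both lists, sorted, with standard error from the fit of the 6 cytoplasms. Black dots passed in the fit of 12 libraries and of the 6, orange dots in the fit of the 6 alone, white dots in neither. Exd1 and Piwil1 are the 2 black dots. The other dots lie on both sides of 0, and the orange ones have bars clear of 0.

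In the WT oocytes 18 of 29 piRNA pathway genes and 10 of 20 microRNA genes were lower in the nucleus and 1 of each (Wdr77, a methyltransferase partner, and Ddx17, a microprocessor helicase) was higher, where 45% of all tested genes were lower and 12% higher; Wdr77 was chosen after its values were seen. The smallest adjusted p belonged to Dnmt3l (-1.55) and Kif17 (-2.56) of the first list and to Lin28a (-1.83) and Tarbp2 (-1.41) of the second, as log2 fold changes. In the Mtr4-null oocytes 10 piRNA genes and 7 microRNA genes were lower and Ddx17 was higher (1.15, limma adjusted p = 0.040), where 28.1% of all tested genes were lower and 4.08% higher, and none passed in the fit of the 6 Mtr4-null libraries.

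As a description of the profiles over the 12 libraries, Mael was closest to Tmco6 (Pearson r = 0.97) and Rtkn2 (r = 0.97), Dicer1 to Idh3a and Psmd3 (r = 0.99 each), and Dgcr8 to Smpd4 and Ywhab (r = 0.99). Over the 6 cytoplasms, Mael was closest to Mtmr6 (r = 0.998) and Piwil2 to Fgfrl1 (r = 0.999). The points share genotype and compartment.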

How the data were processed

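The authors deposited FPKM values, fragment counts scaled by gene length and by the fragments mapped in the library, per gene for 12 libraries; per the submitters' processing notes the tools named were TopHat2 2.1.1 and Cufflinks 2.2.1 on the mouse build mm9. The sources used here give neither the annotation nor whether strand was used. The labels name 3 libraries a group, while the design text speaks of duplicates. Values were log2(FPKM + 1), which understates folds of low genes. The 13157 genes that reached 1 FPKM in 3 or more libraries were fitted with limma 3.58.1 in R 4.3.3, with 4 group means and a variance trend; tests were two-sided, adjusted by Benjamini and Hochberg within each of 5 comparisons and called at 0.05. The libraries of the 2 groups compared were also fitted alone. An exact permutation test compared marker sums. Absolute depth is unknown from FPKM; relative depth came from low values. The 8 genes, the pathway lists and their tests were chosen with earlier results of these data known. Named genes are the members, called or abundant list genes, the closest-correlated genes and check markers. No label says that replicate numbers pair libraries, and same-numbered libraries did not deviate together throughout. Some genes that these rules would name are not reported here.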

Additional observations from a re-analysis of the deposited data

How the results depend on the processing

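Of the 8 genes, the number called was read under each alternative. In the cytoplasm (main value 0) it was 2 in the fit of the 6 libraries, 1 with median-of-ratios scaling, 1 with quantile normalization within compartment, 3 with library weights, 1 with the replicate block, 1 without both doubted nuclei (labelled Mtr4-null, replicates 1 and 3), and 0 to 1 leaving out 1 library; in the fit of the 6 cytoplasms it was 1 to 2 leaving out 1 library. The library weights stopped before they converged. Where a value uses the Mtr4-null nuclei, no count is given without both doubted nuclei, since 1 such nucleus is left. In the nucleus the number called had a main value of 0. For nucleus over cytoplasm in WT (main value 5) it was 2 with median-of-ratios scaling, 2 with quantile normalization and 2 to 6 leaving out 1 library. In Mtr4-null (main value 3) it was 0 in the fit of the 6, 0 with no filter, 0 with median-of-ratios scaling and 0 with quantile normalization. Leaving out 1 library it was 0 to 7 (7 without Mtr4-null nucleus replicate 3). For the difference of genotype effects (main value 0) it was 1 with library weights (Mael), and Dgcr8 gave -1.48 without both doubted nuclei. The genes called in all moved too: in the cytoplasm 248 against 3050 in the fit of the 6, 4802 with weights and 56 to 614 leaving out 1 library, and in the nucleus 298 against 5 in the fit of the 6 and 1262 with median-of-ratios scaling.

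The replicate block gave Mael -1.50 in the cytoplasm (limma adjusted p = 0.041). In the fit of the 6 with the replicate block, Mael had a limma adjusted p of 0.021 and Piwil2 of 0.048. Same-numbered libraries correlated at -0.15 to 0.30, not all above 0.1, so the numbers were not taken as pairs.

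Signs turned as follows, in log2 fold change. In the nucleus Dicer1 gave -0.14 with median-of-ratios scaling, -0.30 with quantile normalization, -0.29 within compartment, -0.26 with weights, -0.53 without those nuclei and -0.38 to 0.30 leaving out 1 library; in the fit of the 6 nuclei it gave -0.29 with quantile normalization and -0.065 with median-of-ratios scaling (-0.38 to 0.30). Mov10l1 gave -0.036 with median-of-ratios scaling, -0.20 with weights, -0.35 without those nuclei and -0.24 to 0.32 leaving out 1. Mael gave -0.030 without those nuclei and -0.0055 to 0.85 leaving out 1, Pld6 -0.35 without them, Ddx4 -0.70 to 0.20 and Dgcr8 -0.70 to 0.29 leaving out 1. In the cytoplasm Dicer1 gave 0.0083 with quantile normalization over all libraries, and 0.0082 within compartment and in the fit of the 6; Ddx4 gave -0.047 to 0.082 leaving out 1 and -0.0038 with median-of-ratios scaling in the fit of the 6. For nucleus over cytoplasm in WT, median-of-ratios scaling gave Piwil2 0.10, Ddx4 0.65 and Tdrkh 0.63, and quantile normalization Ddx4 0.86, Tdrkh 0.63 and Dicer1 0.22. In Mtr4-null it gave Mael 0.61, Ddx4 0.14, Tdrkh 0.39 and Mov10l1 0.16 with median-of-ratios scaling and Mael 0.60, Ddx4 0.20 and Tdrkh 0.37 with quantile normalization. The cause was not tested. The nuclear libraries were shallower than WT cytoplasm replicate 1, and how much depth limits each value was not tested.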
